A study of Rattus norvegicus with 20 samples.

Results

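Tsc1, Tsc2, Sptan1, Kcnt1, Mef2c and Magi2 are the rat counterparts of 6 genes in which mutations have been tied to infantile spasms in people, and their transcripts were followed here in a rat model in which spasms are triggered rather than inherited. All 6 were found by gene name on the array, with 8 probes among the 30367 that are not controls. Of these, 7 probes of 5 genes passed the filter on dim signals and were tested among 17086 genes, and Tsc1 did not pass. RNA came from the hypothalamic arcuate nucleus of female Sprague-Dawley rats on postnatal day 15, with 4 rats in each of 5 conditions. SNS rats came from dams given saline, had no spasms triggered and received saline after birth. BNS rats came from dams given 2 injections of betamethasone, a synthetic corticosteroid, at 0.4 mg/kg each on gestational day 15, and had no spasms triggered and saline after birth. BYS rats had the same prenatal betamethasone, spasms triggered with NMDA on postnatal days 12, 13 and 15, and saline as treatment. BYA and BYP rats differed from BYS rats in receiving ACTH or PMX53, an antagonist of the complement receptor C5ar1, on days 13 to 15 per the labels and from day 12 per the methods of the study. No condition combined spasms with prenatal saline, or a drug with the absence of spasms, and the labels name no mutant strain. The labels do not tie the pups to litters, so p-values measure the spread between these samples.

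Infantile spasms are an epilepsy of the first year of life with many single-gene causes. Tsc1 and Tsc2 form the complex that restrains the growth kinase mTORC1 through the small GTPase Rheb. Sptan1 is the non-erythroid alpha spectrin of the membrane skeleton, Kcnt1 a potassium channel opened by intracellular sodium, Mef2c an activity-regulated transcription factor of neurons, and Magi2 a scaffold of the postsynaptic density. The complex and spectrin work in all cells, while the channel and the scaffold are best known from neurons. In a bulk sample fewer cells of a type and less RNA per cell cannot be told apart.

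Levels are log2 normalised intensities of single channels of 2-colour arrays, in which Cy3 and Cy5 carried 2 rats of a condition on 9 arrays. BYA took 2 slides and every other condition 1, none of them shared, and effects of slide and of condition therefore cannot be told apart. For BYA replicate 3, which shared its array with a rat of another series, the labelled dye goes against the sample order given by the name of the scan. The median ratio of signal to local background was 6.89 in SNS rats and 7.48 in BYA rats, 9.12 in BYP rats and 15.9 in both BNS and BYS rats, and on this measure SNS overlapped with BYA and BYP. SNS samples stood apart in the scatter of repeated spots, since those of 1256 probes varied with a median SD of 0.36 to 0.44 on the log2 scale in SNS samples and of 0.18 to 0.27 in the others. All 16 arcuate neuron markers that were listed passed the filter, and their mean log2 level ran from 11.56 to 12.19 over the 20 samples. None of 6 listed sex-linked gene names is on the array, so the sex label was not checked.

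The probes are shown because the 2 probes of Tsc2 and the 2 of Sptan1 gave different results. The part of their place in the transcript in this was not tested. Each is 60 bases long, and positions are those that the array annotation gives on the rat build rn4, for which no gene models were used here. The 5 below have at least 1 reading frame without a stop codon before the last codon. The closing stop codon is in capitals where that frame ends with one. An open frame over 60 bases does not show that a probe is coding. The second Sptan1 probe also has 1 but is not printed, as it lies beyond the stop codon.
Tsc1 (chr3:7671961-7672020, plus strand): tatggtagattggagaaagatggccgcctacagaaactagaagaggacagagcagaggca
Tsc2 (chr10:13848350-13848409, minus strand): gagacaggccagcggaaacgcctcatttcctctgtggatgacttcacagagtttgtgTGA
Sptan1 (chr3:9021431-9021490, plus strand): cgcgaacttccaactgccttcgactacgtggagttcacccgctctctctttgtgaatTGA
Kcnt1 (chr3:4087970-4088029, plus strand): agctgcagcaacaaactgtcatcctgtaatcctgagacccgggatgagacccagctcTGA
Magi2 (chr4:9960556-10006005, minus strand): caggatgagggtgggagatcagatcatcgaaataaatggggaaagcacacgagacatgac
The Magi2 probe spreads its 60 bases over 45450 bases of the genome, so it joins sequence from separate exons. Tsc2 and Sptan1 each have a second probe downstream of the stop codon, 33 bases further along for Tsc2 (chr10:13848257-13848316) and 144 bases further along for Sptan1 (chr3:9021635-9021694). The Mef2c probe (chr2:12329521-12329580, minus strand) has no open reading frame. It is printed as 10 spots on each array, and the other probes as 1.

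At the gene level, few of the tested members passed an adjusted p of 0.05 in limma, and each that did lay close to it. In the F test over the 5 conditions, Sptan1 (adjusted p = 0.0493) and Kcnt1 (adjusted p = 0.0492) passed, 2 of 5 members against 30.3% of all genes tested. Mef2c (adjusted p = 0.0659), Magi2 (adjusted p = 0.212) and Tsc2 (adjusted p = 0.591) did not. Both calls were lost when the array was added to the limma fit as a random block, with an adjusted p of 0.143 for Sptan1 and 0.165 for Kcnt1, and 18 of the 20 fits that left out 1 sample called fewer than 2 members.

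Between pairs of conditions, the only limma call on the gene level of a member was Mef2c, lower in BYP than in SNS. This was 1 of 5 members against 28.9% of all genes. Against SNS, limma called 0 of 5 members in BNS (28.6% of all genes), in BYS (27.1%) and in BYA (31.3%), where 2, 0 and 2 members had an unadjusted p under 0.05. Of all genes, 41.4%, 40.2% and 42.4% had such a p. Tested by probe, the downstream Sptan1 probe (2 SNS rats) was called against SNS in BNS, BYS, BYA and BYP. The downstream Tsc2 probe was called against SNS in BYA. Those values are given with each gene. Between betamethasone-exposed conditions limma called 0 of 5 members throughout: between BYS and BNS (0.0293% of all genes), BYA and BYS (0%), BYP and BYS (0.0351%), BYP and BYA (0.158%), BYA and BNS (0.117%) and BYP and BNS (1.5%). The members with an unadjusted p under 0.05 in these comparisons numbered 3, 0, 1, 0, 2 and 2 in the same order. Of all genes, 6.92%, 8.07%, 8.5%, 13.6%, 13.1% and 17.8% had such a p. Between BYS and BNS, which differ in the triggered spasms, the members with such a p were Sptan1, Kcnt1 and Mef2c, each higher in BYS. Rats on the same array lay closer together for 4 of the 5 tested members: rats of 1 condition differed by 0.24 on the log2 scale for Sptan1 on the same array and by 0.45 on different arrays, by 0.27 and 0.47 for Mef2c, and by 0.17 and 0.22 for the median gene (9 and 21 pairs, dye effect removed). Magi2 went the other way, with 0.30 on the same array and 0.22 on different arrays.

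**Figure D1:**
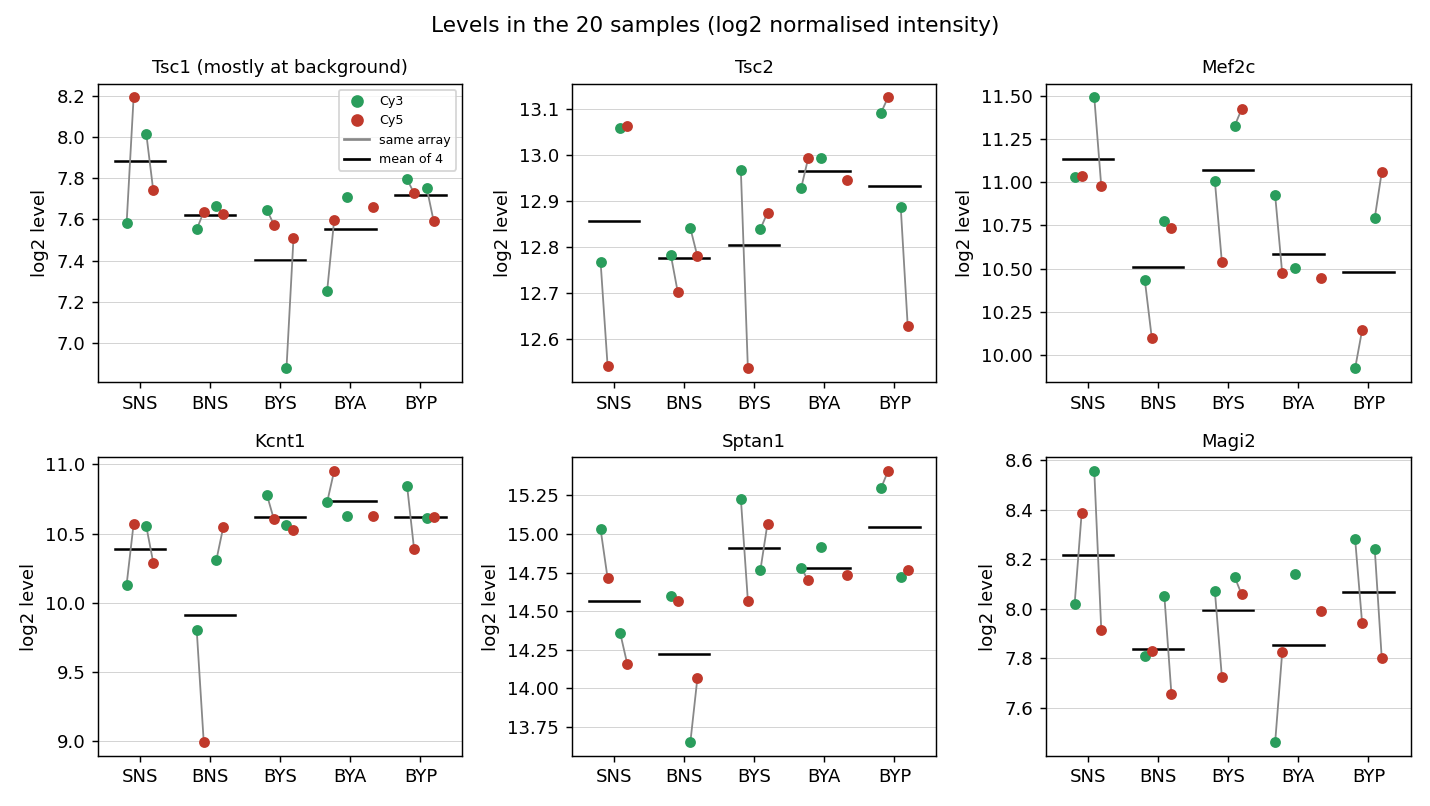
Log2 level (normalised intensity) of each gene in the 20 samples, with Cy3 samples in green, Cy5 samples in red, grey lines between rats on the same array and black bars at the mean of 4 rats. Each panel has its own range, Tsc1 is the level of a probe that was above background in 7 of 20 samples, and BNS holds the lowest Kcnt1 and Sptan1 samples.

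**Figure D2:**
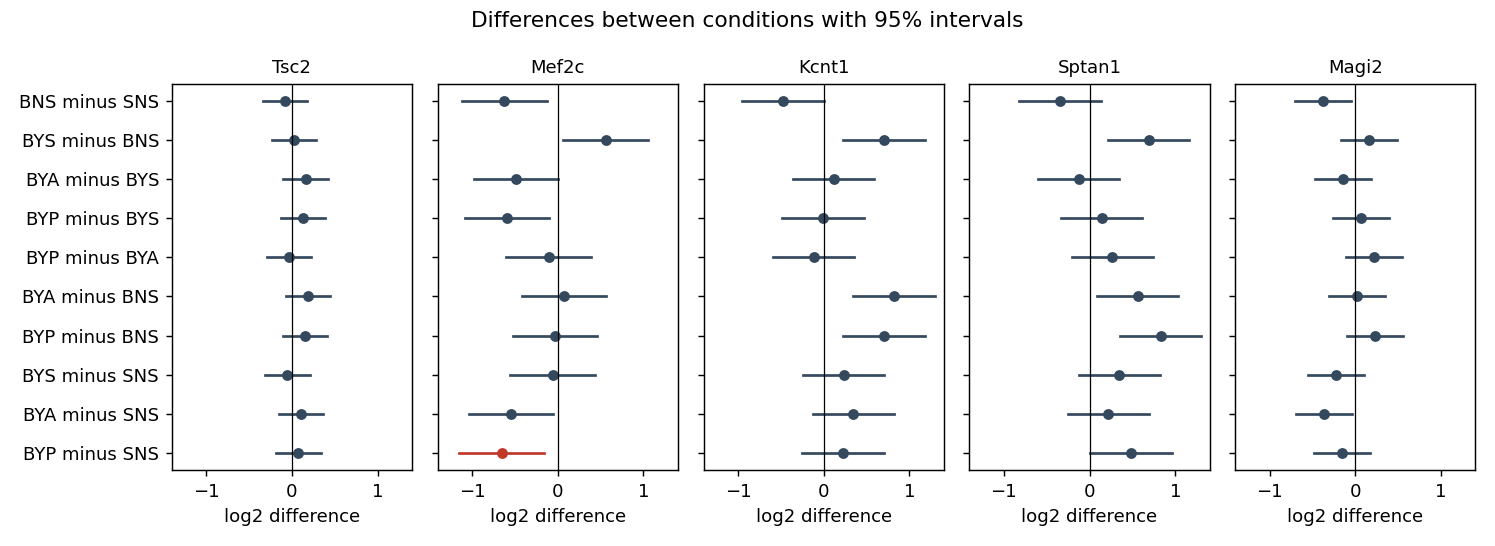
Log2 difference between conditions (first named minus second) for the 5 tested genes, with lines for the 95% interval from limma. Red marks the 1 difference with an adjusted p under 0.05, Mef2c in BYP minus SNS, and Tsc2 has the narrowest intervals, all crossing 0.

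Tsc2, the GTPase-activating subunit of the complex, was the steadiest of the tested members. Its log2 level was 12.77, 12.54, 13.06 and 13.06 in the SNS rats, 12.78, 12.70, 12.84 and 12.78 in BNS and 12.97, 12.54, 12.84 and 12.87 in BYS. It was 12.93, 12.99, 12.99 and 12.95 in BYA and 13.09, 13.12, 12.89 and 12.63 in BYP. The conditions overlapped except that all 4 BYA values lay above all 4 BNS values. That pair had the largest difference, 0.19 on the log2 scale (95% interval -0.07 to 0.45, limma adjusted p = 0.526). The means ran from 12.96 in BYA through BYP, SNS and BYS to 12.78 in BNS, and no neighbours in this order differed beyond their spread. BYS minus BNS was 0.03 with a 95% interval of -0.23 to 0.29 on the log2 scale.

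The downstream Tsc2 probe gave a different order. It was highest in BYA, at 13.41 to 13.52, against 12.90 to 13.33 in SNS, and on its own it passed the limma test for BYA minus SNS with a log2 difference of 0.32 (SE 0.11, adjusted p = 0.0326). The stop codon probe differed between the same rats by -0.11 (SE 0.14, adjusted p = 0.589), so the 2 probes of Tsc2 did not give the same sign. They also had opposite signs for BNS minus SNS (0.12 downstream and -0.28 at the stop codon), BYS minus SNS (0.10 and -0.20) and BYP minus SNS (0.27 and -0.11).

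Tsc1, which stabilises Tsc2, could not be followed with confidence. Its probe had a median signal of 3.1 times the local background and was well above background in 7 of 10 Cy5 samples and 0 of 10 Cy3 samples. These 7 were 2 SNS, 2 BNS, 2 BYS and 1 BYP rats, and no BYA rat was among them. Its log2 level was 7.58, 8.19, 8.02 and 7.74 in SNS, 7.55 to 7.67 in BNS, 7.65, 7.57, 6.88 and 7.51 in BYS, 7.25 to 7.71 in BYA and 7.59 to 7.80 in BYP. The 2 highest values were SNS rats and the lowest a BYS rat, in Cy3 and not above background. In a fit that kept all dim probes, BYS minus SNS was -0.48 for Tsc1 (SE 0.15, limma adjusted p = 0.0299), a value that rests on 2 samples above background in each condition.

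Around the complex, 45 of 48 listed genes of TSC and mTORC1 signalling were tested, a list that includes Tsc2. BNS differed from SNS in 14 of them (31.1%, 8 higher and 6 lower), and BYS, BYA and BYP differed from SNS in 13, 19 and 14 (28.9%, 42.2% and 31.1%), next to 28.6%, 27.1%, 31.3% and 28.9% of all genes. With the array as random block the counts were 8, 5, 12 and 5, and median scaling left 0 higher and 5 lower in BNS. The median log2 difference of the list was -0.10 for BNS minus SNS against -0.04 for all genes, and its sign turned with the processed signal, to 0.04. Pdpk1, the kinase that activates Akt, rose in all 4 conditions relative to SNS, by 0.88 (SE 0.18, limma adjusted p = 0.00233) in BNS and 0.95 (adjusted p = 0.00133) in BYS on the log2 scale. These differences rest on 2 SNS rats that shared an array, since SNS replicates 3 and 4 had no value for Pdpk1. With median scaling none was called (adjusted p from 0.0919 to 0.382). Eif4b, a translation initiation factor, was 0.82 higher in BNS (limma adjusted p = 0.000274), and Sesn3, a sestrin that restrains mTORC1, 1.22 higher in BYA (SE 0.38, adjusted p = 0.0214). Eif4b in BNS had an adjusted p of 0.261 with median scaling, and Sesn3 in BYA one of 0.0804 with the array block. Rheb, the direct target of the complex, averaged 13.50 in SNS and 13.15 to 13.32 elsewhere and passed in none of the 10 comparisons, and Tbc1d7, the third subunit, averaged 8.46 to 8.66. No gene of this list was called between betamethasone-exposed conditions.

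Mef2c gave the largest gene-level differences from SNS of the tested members. Its log2 level was 11.03, 11.03, 11.49 and 10.98 in SNS and 10.44, 10.10, 10.77 and 10.73 in BNS, so these conditions did not overlap. It was 11.01, 10.54, 11.32 and 11.42 in BYS, 10.92, 10.48, 10.50 and 10.44 in BYA, and 9.92, 10.14, 10.79 and 11.06 in BYP. BYS overlapped with both SNS and BNS, BYA lay below SNS, and BYP was divided between its arrays, with the pair of rats on one array at 9.92 and 10.14 and the pair on the other at 10.79 and 11.06.

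The fitted Mef2c difference for BYP minus SNS was -0.65 on the log2 scale, a 1.57-fold lower level (SE 0.24, 95% interval -1.15 to -0.16, limma adjusted p = 0.0450). With the array as a random block the adjusted p was 0.0981, and without BYP replicate 1 the difference was -0.43 (adjusted p = 0.166). The call was lost in 11 of the 20 fits without 1 sample, which included those without each of the 4 SNS rats. BNS minus SNS was -0.62 (limma adjusted p = 0.0553), with a 95% interval of -1.12 to -0.13, and BYA minus SNS was -0.55 (adjusted p = 0.0847). Among exposed rats, BYS minus BNS was 0.56 (95% interval 0.07 to 1.06, limma adjusted p = 0.652) and BYP minus BYS -0.59 (-1.09 to -0.10, adjusted p = 0.488). From high to low the means ran SNS, BYS, BYA, BNS and BYP, from 11.13 to 10.48, and neighbours in this order did not differ in limma.

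The 10 Mef2c spots of each array give the technical spread behind these means. Their SD on the log2 scale was 0.49 to 0.57 in the SNS samples, and reached at most 0.44 in BYA, 0.28 in BYS, 0.22 in BNS and 0.20 in BYP samples. In SNS replicate 1 single spots ran from 10.02 to 11.73, a wider range than the distance between any of the condition means. The scatter of spots moved with the condition that was highest, and its part in the result was not tested. Of the listed marker genes, 3 of 4 for red blood cells rose in BNS relative to SNS, 2 in BYS, 2 in BYA and 0 in BYP. These were 75%, 50%, 50% and 0%, next to 28.6%, 27.1%, 31.3% and 28.9% of all genes. With the array as a random block the counts were 2, 0, 2 and 0. Their mean log2 level was 14.15 to 14.46 in SNS rats and 14.43 to 15.10 in BNS rats, and in rats with spasms 14.25 to 14.97 (BYS), 14.47 to 15.33 (BYA) and 14.08 to 14.36 (BYP). Choroid plexus markers (3 of 8 tested) averaged 9.64 to 10.07 in SNS rats and 9.07 to 9.60 in BNS rats, and reached at most 9.65 in BYS, 9.71 in BYA and 9.60 in BYP. Of these 3 choroid plexus markers, limma called 1 higher in BNS than in SNS, against the direction of the mean, and 1 lower in BYA. The shares of all genes called were 28.6% and 31.3%, and with the array block none of the 3 was called in BNS or BYA. The part of the red blood cell and choroid plexus markers in the Mef2c levels was not tested.

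**Figure D3:**
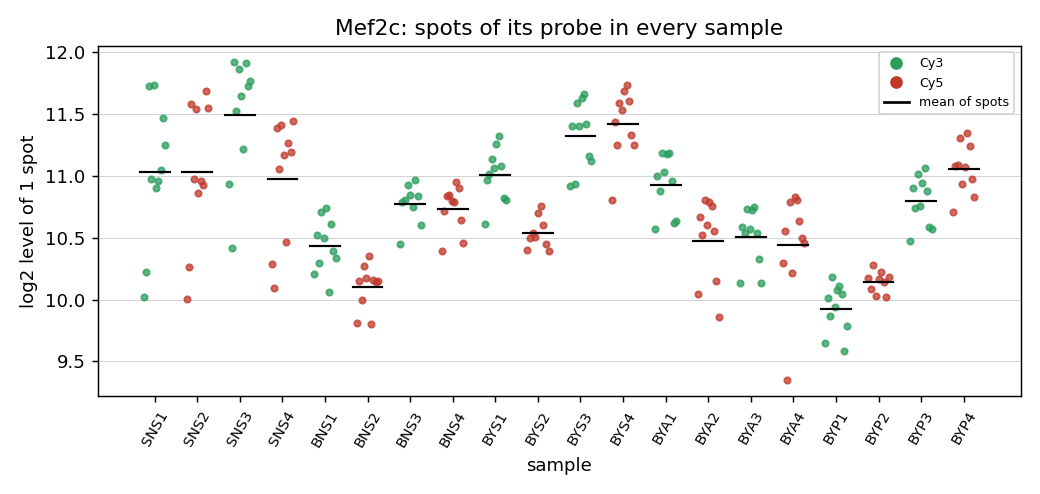
Log2 level of each spot of the Mef2c probe in every sample (Cy3 in green, Cy5 in red) with a black bar at the mean of the spots, outlier spots left out. Spots of the 4 SNS samples spread over more than 1 log2 unit, while BYP replicates 1 and 2 lie below replicates 3 and 4.

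Of 8 listed Mef2 factors and class IIa histone deacetylases, which hold Mef2 proteins inactive, 7 were tested. Mef2a rose relative to SNS in BNS by 0.63, in BYS by 0.61, in BYA by 0.81 and in BYP by 0.69 on the log2 scale (SE 0.13, limma adjusted p from 0.000236 to 0.00271), the opposite sign to that of Mef2c. All 16 exposed rats lay between 7.94 and 8.77 and the 4 SNS rats between 7.37 and 7.70, a range at which the probe was above background in 1 of 4 SNS samples. The Mef2a probe thus passed the filter on dim signals only through exposed conditions, where its level was higher. Its differences from SNS are therefore not independent of that filter. With median scaling the Mef2a difference in BYS had an adjusted p of 0.236. Mef2b, also dim, was 0.44 lower in BYS (adjusted p = 0.0110) and 0.42 lower in BYA (adjusted p = 0.0121), and 0.32 lower in BYP (adjusted p = 0.0498), where median scaling turned the sign to 0.07. With the array block the Mef2b calls in BYS (adjusted p = 0.0501) and BYP (0.139) were lost. No Mef2b call, that in BYA included, held with median scaling (adjusted p from 0.0543 to 0.838) or the processed signal (0.357 to 0.882). Mef2d averaged 9.48 to 9.62 in the 5 conditions and was called in none. Hdac4 was 0.46 lower in BNS than in SNS (limma adjusted p = 0.00795). The list includes Mef2c and held 2, 2, 2 and 3 calls of 7 in BNS, BYS, BYA and BYP against SNS. Of the 3 in BYP, 1 was Mef2c itself. The medians ran from -0.08 to 0.05 beside -0.03 to -0.04 for all genes. Those calls were 28.6%, 28.6%, 28.6% and 42.9% of the 7, next to 28.6%, 27.1%, 31.3% and 28.9% of all genes. With the array block the calls were 2, 1, 2 and 1.

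Kcnt1 was lowest in BNS rats. Its log2 level was 9.80, 8.99, 10.31 and 10.55 in BNS, and 10.13, 10.57, 10.55 and 10.29 in SNS. It was 10.78, 10.60, 10.56 and 10.52 in BYS, 10.73, 10.95, 10.63 and 10.63 in BYA and 10.84, 10.39, 10.61 and 10.62 in BYP. BNS replicate 2, at 8.99, was the lowest of all 20 samples, while the rats with spasms stayed between 10.39 and 10.95. BNS overlapped with SNS, BYS and BYP, and lay below every BYA value.

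BYS minus BNS was 0.70 for Kcnt1 on the log2 scale, 1.63-fold higher in rats with spasms (SE 0.23, 95% interval 0.23 to 1.18), which missed the limma threshold over all genes with an adjusted p of 0.545. BYA minus BNS was 0.82 (adjusted p = 0.157) and BYP minus BNS 0.70 (adjusted p = 0.116). After either drug the mean lay near that of BYS: BYA minus BYS was 0.12 (95% interval -0.36 to 0.59) and BYP minus BYS 0.00 (-0.48 to 0.47). Without BNS replicate 2, BYS minus BNS was 0.39 (adjusted p = 0.769). The means fell in the order BYA, BYS, BYP, SNS and BNS, from 10.73 to 9.91, and no neighbours differed in limma.

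The sodium-activated relative of Kcnt1, Kcnt2, fell relative to SNS in BYA by 0.48 (limma adjusted p = 0.00536) and in BYP by 0.36 (adjusted p = 0.0290), where median scaling turned the sign to 0.20. Kcnt1 differed by 0.35 and 0.23 in the same comparisons, with neither called. The Kcnt2 probe was above background in 11 of 20 samples, and its call in BYP was lost with the array block (adjusted p = 0.108). Neither Kcnt2 call, in BYA or BYP, held with median scaling (adjusted p = 0.192 and 0.552) or the processed signal (0.356 and 0.305). Kcnma1, the large-conductance calcium-activated channel, averaged 8.68 to 8.90 and was called in no comparison. Of 8 listed Slo channel genes 5 were tested, and 1 or 2 of them, Kcnmb2 and Kcnt2, fell in each exposed condition relative to SNS, with 0 calls between exposed conditions. These were 20%, 20%, 20% and 40% of the 5 in BNS, BYS, BYA and BYP, next to 28.6%, 27.1%, 31.3% and 28.9% of all genes. With the array block the calls against SNS were 0, 0, 1 and 1 in BNS, BYS, BYA and BYP.

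Sptan1 was measured with 2 probes, and they put the conditions in different orders. At the stop codon probe the log2 level was 15.03, 14.71, 14.36 and 14.16 in SNS and 14.60, 14.56, 13.65 and 14.07 in BNS. It was 15.23, 14.57, 14.77 and 15.07 in BYS, 14.78, 14.70, 14.91 and 14.73 in BYA and 15.30, 15.41, 14.72 and 14.77 in BYP. BNS lay below all BYA and BYP rats and overlapped with BYS and SNS, and the rats on 1 array lay together in SNS, BNS and BYP. This probe alone gave the level of the gene, because the downstream spot was marked as not uniform in SNS replicates 1 and 2.

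BYP minus BNS was 0.83 for Sptan1 on the log2 scale (1.78-fold, SE 0.23, 95% interval 0.36 to 1.30, limma adjusted p = 0.0699). BYS minus BNS was 0.69 (0.22 to 1.16, adjusted p = 0.545) and BYA minus BNS 0.56 (0.09 to 1.04, adjusted p = 0.297). BNS minus SNS was -0.34 (-0.82 to 0.13, adjusted p = 0.256). Drug and saline rats with spasms were close together, with BYA minus BYS at -0.13 (-0.60 to 0.35) and BYP minus BYS at 0.14 (-0.33 to 0.61). The means fell in the order BYP, BYS, BYA, SNS and BNS, from 15.05 to 14.22, and neighbours did not differ in limma.

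The downstream Sptan1 probe, 144 bases away, placed SNS and not BNS at the bottom. Its log2 level was 13.60 and 14.00 in the SNS rats that were kept, from 14.26 up to 14.48 in BNS and from 14.08 up to 14.83 in BYS, with 14.63 to 14.69 in BYA and 14.39 to 15.07 in BYP. BNS minus SNS was 0.60 (SE 0.20, limma adjusted p = 0.0299), opposite in sign to the -0.34 of the stop codon probe, and BYS, BYA and BYP were 0.68 (adjusted p = 0.0184), 0.86 (adjusted p = 0.00378) and 0.84 (adjusted p = 0.00467) above SNS. These differences rest on 2 SNS rats that shared an array. The fit by probe had no array block, so its adjusted p-values take these 2 rats as independent. The spots marked in SNS replicates 1 and 2 read 13.33 and 13.22, lower still. BYP minus BYA was -0.02 at this probe and 0.27 at the other. BYS minus BNS was 0.07 downstream (95% interval -0.26 to 0.41, adjusted p = 0.993), against 0.69 at the stop codon.

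**Figure D4:**
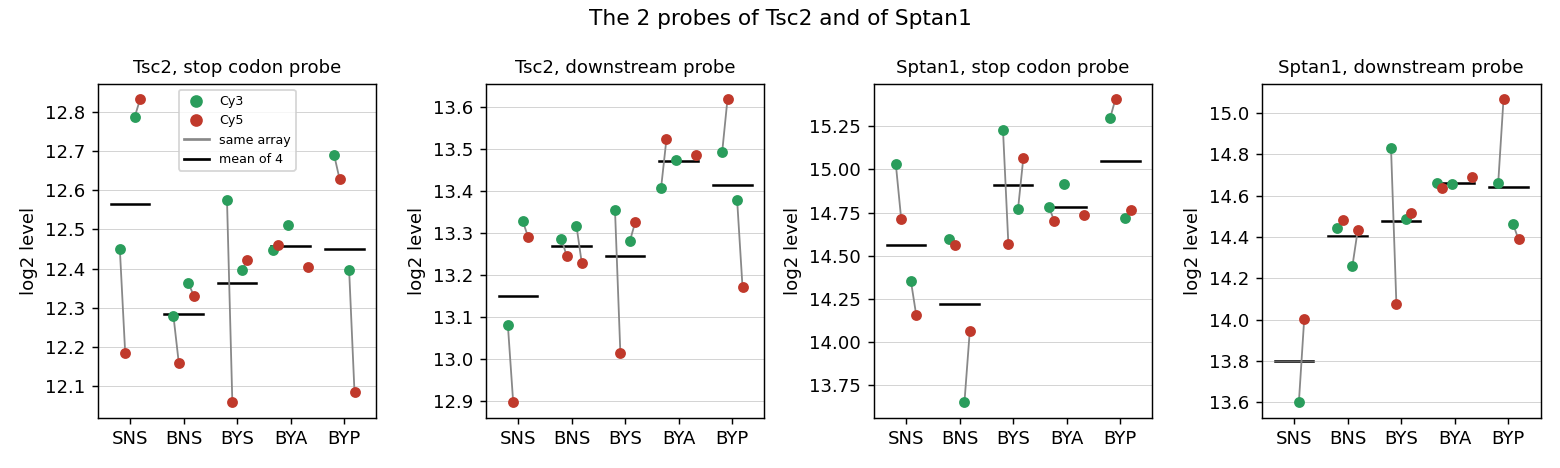
Log2 level at the stop codon probe and at the downstream probe of Tsc2 and Sptan1 in every sample (Cy3 in green, Cy5 in red, grey lines within an array, black bars at the mean, each panel with its own range). For Sptan1 the lowest condition is BNS at the stop codon probe and SNS at the downstream probe, where 2 SNS samples are left out as outlier spots.

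Of 19 listed genes of spectrin, ankyrin and adducin, the partners of Sptan1 under the membrane, 16 were tested. Sptbn1, the beta spectrin that pairs with it, rose relative to SNS in BNS by 0.37, in BYS by 0.54, in BYA by 0.45 and in BYP by 0.54 (SE 0.13, limma adjusted p from 0.00559 to 0.0410). The Sptbn1 call in BNS was lost with the array block (adjusted p = 0.107), and median scaling kept that in BYP only, of the 4. Ank3, the ankyrin of the axon initial segment, read 8.61 to 8.91 in SNS and 8.93 to 9.31 in BNS, and in rats with spasms 9.28 to 9.85 (BYS), 9.37 to 10.02 (BYA) and 9.58 to 9.89 (BYP). No exposed rat overlapped with SNS, and the differences from SNS were 0.42 (adjusted p = 0.0364), 0.85 (adjusted p = 0.000336), 0.97 (adjusted p = 8.82e-05) and 0.95 (adjusted p = 0.000129). With the array as a random block the first of these had an adjusted p of 0.127 and the others stayed under 0.05, as they did with median scaling (0.0891 for the first). The beta spectrins Sptb and Sptbn4 were called in no comparison. In all, 3, 4, 6 and 4 of the 16 were called in BNS, BYS, BYA and BYP against SNS (18.8%, 25%, 37.5% and 25%), and 0 between exposed conditions. With the array block these counts were 0, 2, 4 and 3, and the shares of all genes were 28.6%, 27.1%, 31.3% and 28.9%.

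Magi2 was dim, with a median signal of 4.42 times the local background, and was above background in 10 of 10 Cy5 and 4 of 10 Cy3 samples. It passed the filter through BYS, the only condition with all 4 samples above background. Its log2 level was 8.02, 8.39, 8.56 and 7.91 in SNS, 7.81, 7.83, 8.05 and 7.66 in BNS and 8.07, 7.72, 8.13 and 8.06 in BYS. It was 7.46, 7.82, 8.14 and 7.99 in BYA and 8.28, 7.94, 8.24 and 7.80 in BYP. All conditions overlapped, with SNS highest on average (8.22) ahead of BYP, BYS and BYA, and BNS lowest (7.84). BNS minus SNS was -0.38 (95% interval -0.71 to -0.06, limma adjusted p = 0.0719) and BYA minus SNS -0.37 (-0.69 to -0.04, adjusted p = 0.0809). BYS minus BNS was 0.16 (-0.17 to 0.49), and neighbours in the order of means did not differ in limma. The offset of 50 that was added to every intensity brings such low values closer together.

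Of 15 listed Magi scaffolds and partners 14 were tested. Magi3 fell in BNS by 0.58 (SE 0.16, limma adjusted p = 0.0137) and in BYP by 0.45 (adjusted p = 0.0464) relative to SNS, the same sign as the differences of Magi2, and both calls were lost with the array block (adjusted p = 0.0577 and 0.133). Magi1 averaged 9.94 to 10.19 and was called in none. Iqsec3, an exchange factor at inhibitory synapses, rose in all 4 exposed conditions, by 0.77 in BNS to 1.01 in BYA (SE 0.25, limma adjusted p from 0.00507 to 0.0255). The SNS rats were divided by array, at 11.91 and 11.81 on one and at 13.32 and 13.19 on the other, and the second pair lay near the BNS rats (13.27 to 13.43). No Iqsec3 call held with median scaling (adjusted p from 0.109 to 0.513) or the processed signal (0.194 to 0.450). Cntnap2, a neurexin family protein, rose by 0.43 in BYA (adjusted p = 0.00287), 0.40 in BYP (adjusted p = 0.00544), 0.35 in BNS (adjusted p = 0.0134) and 0.31 in BYS (adjusted p = 0.0264), and the last 2 were lost with the array block (0.0627 and 0.101). No Cntnap2 call in BYA, BYP or BYS held with the processed signal (0.336 to 0.452). Calls against SNS numbered 6, 3, 3 and 4 in BNS, BYS, BYA and BYP (42.9%, 21.4%, 21.4% and 28.6%, next to 28.6%, 27.1%, 31.3% and 28.9% of all genes), and 1, 1, 3 and 2 with the array block. Between exposed conditions there were 0.

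Among 36 further genes of infantile spasms or early epileptic encephalopathy in people, 30 were tested, and 13, 7, 8 and 7 were called in BNS, BYS, BYA and BYP against SNS (43.3%, 23.3%, 26.7% and 23.3%), or 7, 5, 4 and 3 with the array block. The shares of all genes were 28.6%, 27.1%, 31.3% and 28.9%. Of the 13 in BNS, 10 were lower, and their list had a median log2 difference of -0.18 beside -0.04 for all genes. Among all genes called in BNS, 2584 were higher and 2300 lower. With the processed signal the list held 2 higher and 3 lower in BNS, with a median of -0.13, and with median scaling 1 higher and 6 lower. Phactr1, a regulator of protein phosphatase 1 and actin, moved the most. It read 11.31, 11.18, 10.93 and 10.61 in SNS, and in the exposed rats 11.78 to 12.28 (BNS), 11.99 to 12.51 (BYS), 11.99 to 12.51 (BYA) and 11.82 to 12.14 (BYP), with no overlap between SNS and the rest. Its differences from SNS were 1.01, 1.26, 1.23 and 1.03 on the log2 scale (SE 0.16, limma adjusted p from 1.89e-05 to 0.000159), all under 0.05 when the array was a random block. With median scaling Phactr1 was not called in BNS (0.69, adjusted p = 0.0890) or BYP (0.56, adjusted p = 0.125). Grin2a, an NMDA receptor subunit, fell in BNS by 0.86 (limma adjusted p = 0.0139). The BNS rats read 7.05 and 7.54 on one array and 8.58 and 8.44 on the other, the latter within the SNS range of 8.43 to 9.07, and the call was lost with median scaling (adjusted p = 0.0664). Between exposed conditions this list held the 2 calls of the 6 lists, both for BYP minus BNS and neither kept under the array block. Of these, Chd2, a chromatin remodeller, rose in BYP by 0.70 (SE 0.16, limma adjusted p = 0.0329), with an adjusted p of 0.232 under the array block and 0.834 with median scaling. Each of Phactr1, Ank3 and Mef2a rests on 1 probe.

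Over all 6 lists, 116 of 133 genes were tested, and 39, 30, 39 and 34 were called in BNS, BYS, BYA and BYP against SNS. These were 33.6%, 25.9%, 33.6% and 29.3%, next to 27.1% to 31.3% of all genes. The 34 in BYP include Mef2c. With the array as a random block the counts were 18, 14, 26 and 15. Between exposed conditions limma called 0, 0, 0, 0, 0 and 2 of the 116 for BYS minus BNS, BYA minus BYS, BYP minus BYS, BYP minus BYA, BYA minus BNS and BYP minus BNS, where 11, 4, 5, 10, 20 and 16 had an unadjusted p under 0.05. Of all genes, 6.92%, 8.07%, 8.5%, 13.6%, 13.1% and 17.8% had such a p in the same order.

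Across the 20 samples, with the dye effect removed, the members shared little of their pattern. Pearson correlations between pairs of the 5 tested members ran from -0.21 to 0.27, as a description over samples that share arrays and conditions. The genes with the most similar pattern to Tsc2 among 16299 were Rbp2 (r = 0.95) and Brms1 (r = 0.85), and Maf1, a repressor of RNA polymerase III, was close to Sptan1 (r = 0.85). Kcnt1 was followed by Cep15 (r = 0.88) and Cgref1 (r = 0.88), Mef2c by Oga, the enzyme that removes O-GlcNAc (r = 0.81), and Ankhd1 (r = 0.77), and Magi2 by Sox11, a transcription factor of immature neurons (r = 0.87), and a transcript without a gene symbol (r = 0.86).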

How the data were processed

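RNA of 20 female rats was hybridised to 11 arrays on 6 slides. The authors deposited 1 scanner file per array. Per the file headers these hold raw intensities (the mean of each spot, the median of its surroundings) and processed intensities, from which background was subtracted and to which a dye normalisation was applied. The extraction software is version 10.7.3.1 per the submitters' processing notes and 11.5.1.1 per the headers. The flags of each spot (well above background, saturated, outlier) were also used, and 82 columns of another series' samples were not.

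Each of the 20 channels was background-corrected by normexp in limma (offset 50), and channels were quantile normalised on the log2 scale. Outlier spots (1.18% of values) were left out and spots of a probe averaged. Probes counted as detected in a sample with 0.5 or more of their spots flagged well above background, and those detected in all 4 samples of any condition were retained, 19883 probes of 17086 genes. The level of a gene is the mean over its complete probes, or the probe with fewest gaps where none is complete. Accessions of 18643 probes (61.4%) matched RefSeq symbols (GRCr8), and the others kept the name in the files. No saturated spot belonged to a member. All 10 comparisons and the F test came from 1 limma fit over the 20 samples with the dye as a covariate, with Benjamini-Hochberg adjustment over all genes and intervals at 95%. The number of arrays limits the precision.

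Members, gene lists, relatives and markers were chosen with earlier results of these data known. Named are all members and their relatives, from each list up to 3 called genes per comparison with the largest difference, and per member the 2 genes with the highest Pearson correlation. Some genes under this rule are not reported here. Marker lists of 14 cell types and tissues were summarised by mean log2 level, and those of arcuate neurons, red blood cells and choroid plexus are described. Others also held calls. Of 9 endothelium and mural cell markers, 2, 6, 5 and 2 were called in BNS, BYS, BYA and BYP against SNS. These were 22.2%, 66.7%, 55.6% and 22.2%, next to 28.6%, 27.1%, 31.3% and 28.9% of all genes. With the array block the counts were 2, 1, 2 and 1. Alternatives were median scaling, the processed signal minus its 75th percentile, no background correction, no dim filter, tests by probe, no dye covariate, array, slide or replicate number as a block, only the 8 samples compared, the methods' t-test and each of the 20 samples left out. One further alternative, outlier spots kept, was added after seeing the data. The fit was tested on simulated data. Software was limma 3.58.1 with statmod 1.5.0, run in R 4.3.3 with the package data.table at 1.17.8.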

Additional observations from a re-analysis of the deposited data

Results flagged for a closer look

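In 2 of the 49 groups of 4 samples that were checked, 1 sample stood apart from the other 3 by a gap beyond the Dixon limit at 95%, and chance marks about 1 group in 20. Both were groups of Mef2c levels. In SNS, replicate 3 had a log2 level of 11.49 and the other rats 10.98 to 11.03, with a gap of 0.886 of the range. In BYA, replicate 1 had 10.92 and the other rats 10.44 to 10.50, with a gap of 0.878 of the range. Without SNS replicate 3, Mef2c in BYP minus SNS was -0.55 on the log2 scale, with a limma adjusted p of 0.119.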

How the results depend on the processing

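Gene-level calls on the members sat near the threshold and moved with most settings. The F test over the 5 conditions called 2 members, and 0 with the processed signal minus the 75th percentile, with no filter on dim probes and with a random block for the array, 1 with outlier spots kept (an alternative chosen after seeing the data), and 4 with the slide as a random block, whose estimated correlation was below 0 (-0.13). Leaving out each sample in turn gave 0 to 2. Between pairs of conditions the 1 call on a member (Mef2c, BYP minus SNS) became 0 with the processed signal, with no dim filter, with the array block, with only the 8 samples compared and with the methods' t-test, unadjusted or adjusted, and 0 to 1 when each sample was left out. It became 2 with each probe tested on its own, with the slide block and with outlier spots kept. For BNS minus SNS members called numbered 2 with median scaling, 1 by probe, 3 with the slide block, 1 in the fit with the replicate block, 1 with 8 samples, 1 with the unadjusted t-test and 0 to 1 without 1 sample. For BYA minus SNS they numbered 2 by probe, 2 with the slide block, 1 with the replicate block, 1 with 8 samples, 2 with the unadjusted t-test, 1 with outlier spots kept and 0 to 1 without 1 sample. For BYS minus SNS they numbered 1 with no dim filter (Tsc1), 1 by probe and 1 with outlier spots kept. Among exposed conditions 1 member was called for BYS minus BNS, BYP minus BYS and BYA minus BNS with median scaling, 1 for BYP minus BNS with the processed signal and the replicate block, 1 and 2 for BYA minus BNS and BYP minus BNS with the slide block, and 1 each for BYS minus BNS, BYA minus BNS and BYP minus BNS with the unadjusted t-test. Why these calls moved was not tested.

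Signs of single members turned as follows. For Tsc2, BNS minus SNS was 0.12 at the downstream probe and -0.18 to 0.010 without 1 sample, BYS minus BNS was -0.0083 with the processed signal, -0.025 at the downstream probe and -0.015 to 0.11 without 1 sample, and BYP minus BYS was -0.43 with median scaling. For Sptan1, BNS minus SNS was 0.60 at the downstream probe and 0.26 with outlier spots kept, BYA minus BYS was 0.058 with the processed signal, 0.18 at the downstream probe and 0.028 with outlier spots kept, BYP minus BYS was -0.38 with median scaling and BYP minus SNS -0.076. For Kcnt1, BYP minus BYS was 0.039 with the processed signal and -0.069 to 0.065 without 1 sample. For Magi2, BYS minus BNS was -0.32 and BYA minus BYS 0.22 with median scaling, the latter -0.22 to 0.027 without 1 sample. The 2 probes of a gene also gave opposite signs in comparisons described in the report.

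Replicate numbers did not pair samples across conditions: deviations from the condition mean, freed of the dye effect, correlated at 0.0031 on average between samples of the same number (-0.24 to 0.28) and at -0.00075 between samples of different numbers. Counts of all genes called are given in the order BNS-SNS, BYS-BNS, BYA-BYS, BYP-BYS, BYP-BYA, BYA-BNS, BYP-BNS, BYS-SNS, BYA-SNS and BYP-SNS. They were 4884, 5, 0, 6, 27, 20, 257, 4631, 5342 and 4938, and with the replicate block 5099, 6, 2, 5, 14, 7, 343, 4867, 5576 and 5185. Median scaling gave 2651, 47, 0, 2849, 0, 34, 0, 1441, 1389 and 4902, and put the median difference over all genes at -0.14 for BNS-SNS, 0.15 for BYS-BNS, -0.17 for BYP-BYS, -0.13 for BYP-BYA, 0.11 for BYA-BNS, -0.13 for BYS-SNS and -0.11 for BYP-SNS. It also moved the share of calls that were higher from 52.9% to 29.8% for BNS-SNS, from 53.6% to 66% for BYS-SNS, from 50.6% to 71.2% for BYA-SNS, from 53.4% to 32.3% for BYP-SNS, from 33.3% to 71.3% for BYP-BYS and from 70% to 97.1% for BYA-BNS. The processed signal gave 2333, 18, 5, 39, 103, 56, 630, 2306, 1792 and 2777, with a higher share of 62.5% for BYA-SNS, 55.6% for BYS-BNS (80% before) and 15.4% for BYP-BYS. The array block gave 2588, 0, 0, 1, 0, 1, 15, 2378, 3306 and 2643, the slide block 8142, 179, 124, 423, 1026, 856, 2646, 7854, 7781 and 8131, and only the 8 samples compared 4517, 0, 0, 0, 0, 0, 169, 3389, 3022 and 3141. The methods' t-test gave 6068, 1293, 852, 944, 1182, 1759, 2548, 5324, 5022 and 5031 unadjusted and 2525, 0, 0, 0, 0, 0, 11, 1720, 1222 and 1376 adjusted. Without background correction BYA-BYS had 6 and BYP-BYA 68, with no dim filter BYP-BYA had 63 and BYP-BNS 422, by probe BYP-BYA had 13 and BYA-BNS 3, with no dye covariate these had 5 and 12, and with outlier spots kept BYS-BNS had 8. Leaving out 1 sample gave 0 to 11 for BYS-BNS, 0 to 26 for BYA-BYS, 4 to 35 for BYP-BYS, 0 to 265 for BYP-BYA, 1 to 182 for BYA-BNS and 72 to 350 for BYP-BNS. The F test called 5176 genes, 2826 with median scaling, 2694 with the processed signal, 2061 with the array block and 10503 with the slide block. Genes of the 6 lists called were 20, 1, 0, 15, 0, 1, 0, 6, 9 and 33 with median scaling and 18, 0, 0, 0, 0, 0, 0, 14, 26 and 15 with the array block, and without 1 sample 23 to 41 for BNS-SNS, 0 to 1 for BYA-BNS and 0 to 3 for BYP-BNS.

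Signal over background limits Tsc1 and Magi2. All members are limited by 4 rats a condition, by shared arrays and by slides that cannot be told apart from conditions. The 2 probes of Tsc2 and of Sptan1 also gave opposite signs in some comparisons.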
